A study of Mus musculus with 43 samples.

Results

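The 35 genes described here encode enzymes of fatty acid oxidation, the pyruvate dehydrogenase complex and the tricarboxylic acid (TCA) cycle, nearly all of them mitochondrial. They were listed by gene symbol, and all 35 occurred among the 26264 genes of each of 6 count tables. Polyadenylated mouse RNA from 43 libraries in 15 groups was sequenced, in a series on the transcription factors RUNX1 and RUNX2 in brown and beige fat. One table held brown preadipocytes of a line labelled BAT that carried a control vector (genotype WT), overexpressed Runx1 or overexpressed Runx2 and were then differentiated into mature brown adipocytes. A second table held such cultures as controls (WT) or with Runx1, Runx2 or both knocked out. Inguinal white fat (iWAT) came from Runx1 flox mice against Adipoq-cre:Runx1 KO mice, and from Runx2 flox mice against Adipoq-cre:Runx2 KO mice. Adipoq-cre acts in adipocytes, so other cells of the pad keep the gene. Another table held iWAT of WT and Runx1 knockout mice labelled HFD, whose labels name no Cre. These groups had 3 libraries each. The last table held brown adipocyte cultures carrying either full-length Runx2 or a Runx2 from which a stretch labelled IDR was deleted, 2 libraries each. The labels used here give no ages, no clone numbers and do not state whether each library is its own culture or animal. The p-values therefore measure the spread between libraries, which may be technical.

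Fatty acids enter mitochondria as acylcarnitines and are shortened in repeated rounds of oxidation, hydration, oxidation and thiolysis, known as beta-oxidation. The acetyl-CoA so made, together with that from pyruvate, is oxidised in the TCA cycle, and both routes feed electrons to the respiratory chain. Brown and beige adipocytes are rich in mitochondria and burn fatty acids for heat, while white adipocytes mainly store them. RUNX1 and RUNX2, known from blood and bone formation, bind DNA as partners of CBFB.

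Values are CPM (counts scaled to library size) scaled within each table, and differences are log2 fold changes with their standard error (SE). A gene is said to have risen or fallen where the edgeR quasi-likelihood (QL) adjusted p, taken over all genes tested in the table, was under 0.05. CPM are not divided by gene length, so levels are compared between samples and not between genes. In bulk RNA, fewer cells of a type and less RNA per cell cannot be told apart.

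Library totals ran from 28.1 to 52.2 M counts. Runx1 stood at 5.57 ± 1.23 CPM in vector cultures and 73.9 ± 10.5 where it was overexpressed (SD, n = 3), and Runx2 at 8.77 ± 0.892 and 309 ± 25.8 CPM. In the knockout cultures neither targeted mRNA passed the test: Runx1 had log2 0.05 in its knockout, Runx2 -0.02 in its own, and the double knockout had -0.15 and -0.03. In iWAT, Runx1 had log2 -0.62 (edgeR QL adjusted p = 0.078) in its knockout and Runx2 -1.19 (0.25) in its own, and under HFD Runx1 had -0.30. A gene count can miss a small deletion, so these counts do not check the knockout labels. Markers of brown adipocytes summed to 425 to 774 CPM in control, knockout and Runx2-construct cultures, and general adipocyte markers to 14110 to 47270 CPM in iWAT, as the tissue labels say. Cardiac and skeletal muscle markers summed to 98.3, 392 and 1470 CPM in 2 vector and 1 Runx1 culture against 3.53 to 9.29 CPM in the other overexpression libraries. In iWAT, 1 floxed and 2 knockout libraries of the Runx1 table and 1 floxed library of the Runx2 table carried skeletal muscle markers at 7060 to 16670 CPM. Where an overexpression call of a member was lost without these libraries, its value in that fit stands beside it. For Runx1 knockout iWAT the lost calls are given together, after the calls.

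Promoters of the members are shown for the genes that moved most, or against the others, and for both genes with the RUNX-type letters TGTGGT. RefSeq (build GRCm38.p6, another build than that of the counts) gave the 250 bases before the annotated start for 31 of the 35 members. Cpt1b, Acaa2, Decr1 and Idh3a had none there. The windows were searched on both strands for TGTGGT and TGCGGT (RUNX type), AAGGTCA (ERR type), CCGGAAGT (GABP type), GGGCGG (SP1 type) and CCAAT, and for longer motifs of the NRF1 and PPAR types, given here by name. The PPAR-type motif holds part of the ERR letters. Capitals mark the matches of these motifs.
Hadhb, chr5:30155003-30155252, plus strand: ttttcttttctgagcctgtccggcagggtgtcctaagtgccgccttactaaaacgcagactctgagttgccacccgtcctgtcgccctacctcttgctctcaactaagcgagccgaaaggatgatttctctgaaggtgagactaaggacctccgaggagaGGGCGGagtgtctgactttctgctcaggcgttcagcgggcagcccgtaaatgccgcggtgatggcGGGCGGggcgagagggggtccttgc
Cpt1a, chr19:3323051-3323300, plus strand: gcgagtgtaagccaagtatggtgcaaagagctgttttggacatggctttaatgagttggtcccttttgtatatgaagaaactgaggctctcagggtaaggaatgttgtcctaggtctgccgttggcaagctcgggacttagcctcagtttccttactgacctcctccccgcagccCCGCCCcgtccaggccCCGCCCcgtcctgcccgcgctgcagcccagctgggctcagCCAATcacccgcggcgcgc
Mdh2, chr5:135778399-135778648, plus strand: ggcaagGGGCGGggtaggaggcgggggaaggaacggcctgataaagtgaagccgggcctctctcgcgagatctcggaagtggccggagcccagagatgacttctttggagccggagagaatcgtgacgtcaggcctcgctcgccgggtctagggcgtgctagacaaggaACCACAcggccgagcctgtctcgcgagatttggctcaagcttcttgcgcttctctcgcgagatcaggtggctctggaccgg
Pdha1, chrX:160138431-160138680, minus strand: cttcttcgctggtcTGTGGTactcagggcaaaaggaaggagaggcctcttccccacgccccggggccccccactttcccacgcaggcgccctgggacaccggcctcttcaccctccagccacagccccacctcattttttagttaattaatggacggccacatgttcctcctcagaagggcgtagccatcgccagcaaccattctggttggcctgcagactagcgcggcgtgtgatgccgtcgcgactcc
Hadha and Hadhb, the alpha and beta subunits of the trifunctional protein, are read in opposite directions from starts with 272 bases between them, so they share this upstream stretch. TGTGGT was found in 2 of 31 members (6.45%), 236 bases before the start of Pdha1 and 81 before that of Mdh2, against 15.9% of the 27025 genes with a window. TGCGGT, the other RUNX-type letters, was found in Echs1 alone (3.23% against 5.84%), whose promoter is not shown. The SP1-type letters were found in 22 members (71.0%, against 35.4% of all genes) and CCAAT in 15 (48.4%, against 37.5%), in windows with a median GC content of 60.4% against 52.4% for all windows. The ERR-type letters were found in Acadm (3.23%, against 4.7%), the NRF1 type in Etfdh (3.23%, against 0.877%), the GABP type in Cpt2 (3.23%, against 3.23%) and the PPAR type in no member (0.0407% of all genes). These matches describe letters in a short window and are not binding sites.

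In the overexpression cultures most of the 35 genes fell, and they fell further with Runx2 than with Runx1. With Runx1, 30 of 35 fell (85.7%, where 25.8% of all tested genes fell) and 2 rose (5.71%, against 28.2%), with a median log2 of -0.61 for the members and 0.058 for all genes. With Runx2, 32 fell (91.4%, against 29.6%) and 1 rose (2.86%, against 31.3%), with medians of -1.45 and 0.026, and 29 members were at log2 -1 or below, as 13.3% of all genes were. Against Runx1, the Runx2 cultures had 33 members lower (94.3%, against 21.0%) and 1 higher (2.86%, against 18.9%), with medians of -0.89 and -0.021. These 3 comparisons share libraries, so their values are given side by side.

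**Figure D1:**
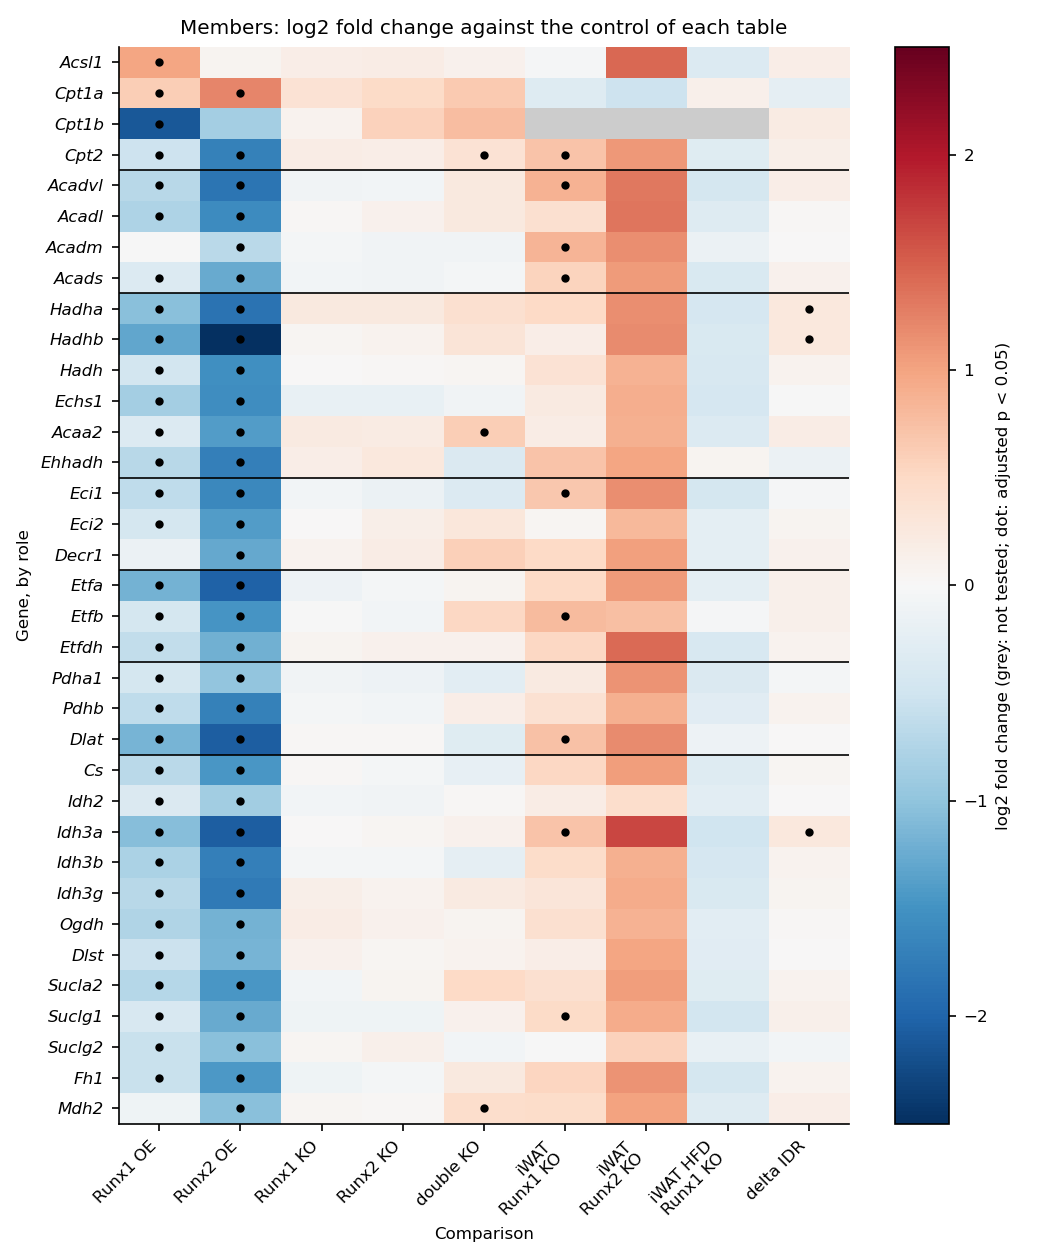
Log2 fold change (colour scale at the side) of each of the 35 genes (rows, by role, with lines between roles) in the 9 comparisons with a control (columns), where dots mark genes at edgeR QL adjusted p under 0.05 and grey marks untested ones. Both overexpression columns are blue in nearly every row apart from Acsl1 and Cpt1a, the single-knockout culture columns are pale (range -0.18 to 0.57), and the Runx2 knockout iWAT column has no dots and is red apart from Cpt1a (-0.52) and the untested Cpt1b.

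The members that rose against vector, Cpt1a and Acsl1, both belong to acyl-CoA activation and the carnitine shuttle, whose other genes did not rise. Cpt1a encodes the liver-type carnitine palmitoyltransferase, which makes acylcarnitines at the outer membrane. Its level was 42.6, 45 and 47.2 CPM in the vector libraries, 65.2, 65.4 and 75.0 with Runx1, and 101, 111 and 102 with Runx2. The 3 groups did not overlap, and Cpt1a rose in both (log2 0.61, SE 0.09, and 1.22, SE 0.091; edgeR QL adjusted p = 0.00017 and 4.6e-07) and between them (log2 0.62, SE 0.089). Acsl1, which joins long-chain fatty acids to CoA, stood at 794, 910 and 758 CPM in vector libraries, 1483, 1561 and 1828 with Runx1, and 815, 852 and 919 with Runx2. Only the Runx1 libraries stood apart: Acsl1 rose with Runx1 (log2 0.98, SE 0.11) but had log2 0.07 (SE 0.11) with Runx2, and was lower with Runx2 than with Runx1 (-0.91, SE 0.11). Cpt2 encodes the inner-membrane transferase that turns acylcarnitines back into acyl-CoA. It measured 183, 195 and 161 CPM in vector libraries, 118, 125 and 131 with Runx1, and 55.8, 52.9 and 58.3 with Runx2. It fell in both (log2 -0.53, SE 0.091, and -1.69, SE 0.094). The transferases at the outer and the inner membrane thus moved in opposite directions in the same libraries.

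Cpt1b, the muscle-type isoform of the first transferase, was barely read in any table. It had between 0 and 52 counts in a library, its neighbour Chkb 0 to 16, and the overlapping readthrough gene Gm44502 (synonym Chkb-Cpt1b) 0. Reads shared by overlapping genes could be lost in the counting, so its values are uncertain. It was at 0.527, 1.64 and 1.08 CPM in vector libraries, at 0.161, 0.101 and 0.481 with Runx1, and at 0.708, 0.506 and 0.591 with Runx2. It fell with Runx1 (log2 -2.12, SE 0.65, edgeR QL adjusted p = 0.017) and did not pass with Runx2 (-0.84, SE 0.61). The Runx1 call was lost in at least 1 alternative. In all 3 iWAT tables Cpt1b was too low to be tested.

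All 4 acyl-CoA dehydrogenases, which take the first electrons from fatty acyl-CoA of different chain lengths, fell with Runx2, and 3 fell with Runx1. The medium-chain enzyme Acadm was the exception. It stood at 766, 782 and 666 CPM in vector libraries and at 737, 755 and 717 with Runx1, ranges that overlapped (log2 -0.00, SE 0.085, edgeR QL adjusted p = 0.97). With Runx2 it fell to 468, 457 and 462 CPM (log2 -0.68, SE 0.085). The very-long-chain enzyme Acadvl was at 1153, 1328 and 1115 CPM, then 726, 794 and 698, then 389, 312 and 318, and fell in both (log2 -0.70 and -1.82, both SE 0.11). The long-chain enzyme Acadl, at 786, 802 and 712 CPM, then 416, 472 and 464, then 248, 248 and 273, fell by 0.77 and 1.58 on the log2 scale (SE 0.09 and 0.091). The short-chain enzyme Acads was at 166, 214 and 152 CPM, then 146, 148 and 125, then 80.9, 73.4 and 69.0. Its fall with Runx1 was the smallest of the dehydrogenases that passed (log2 -0.34, SE 0.13, edgeR QL adjusted p = 0.041), and it fell by 1.25 (SE 0.13) with Runx2. Without the libraries with muscle transcripts the Runx1 call of Acads was lost (log2 -0.05, edgeR QL adjusted p = 0.78).

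All 6 genes of the later beta-oxidation steps fell in both cultures, though the Runx1 call of Acaa2 was lost without the libraries with muscle transcripts (log2 -0.15, edgeR QL adjusted p = 0.34). Hadhb had the lowest log2 fold change of the members with Runx2. It encodes the thiolase subunit of the trifunctional protein, which handles long chains, and its level was 979, 1040 and 910 CPM in vector libraries. It was 371, 366 and 448 CPM with Runx1 (2.47-fold lower, log2 -1.30, SE 0.099) and 170, 173 and 180 with Runx2 (5.61-fold lower, log2 -2.49, SE 0.10, edgeR QL adjusted p = 5.7e-09). Hadha, the partner subunit, was at 1362, 1535 and 1417 CPM, then 649, 705 and 731, then 418, 378 and 402 (log2 -1.05, SE 0.088, and -1.85, SE 0.09). So both genes of the shared promoter fell, Hadhb by more than Hadha in each comparison, a difference that was not tested. The hydratase Echs1 was at 350, 390 and 321 CPM, then 190, 208 and 188, then 132, 113 and 118 (log2 -0.86 and -1.55), with the smallest step from Runx1 to Runx2 of this role (-0.69, SE 0.098). Acaa2, a mitochondrial thiolase, moved least with Runx1: 511, 622 and 484 CPM in vector libraries, 419, 453 and 396 with Runx1 (log2 -0.35, SE 0.11), and 224, 192 and 200 with Runx2 (log2 -1.39, SE 0.11). The dehydrogenase Hadh fell by 0.46 and 1.53 on the log2 scale, and the peroxisomal bifunctional enzyme Ehhadh by 0.70 and 1.70.

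**Figure D2:**
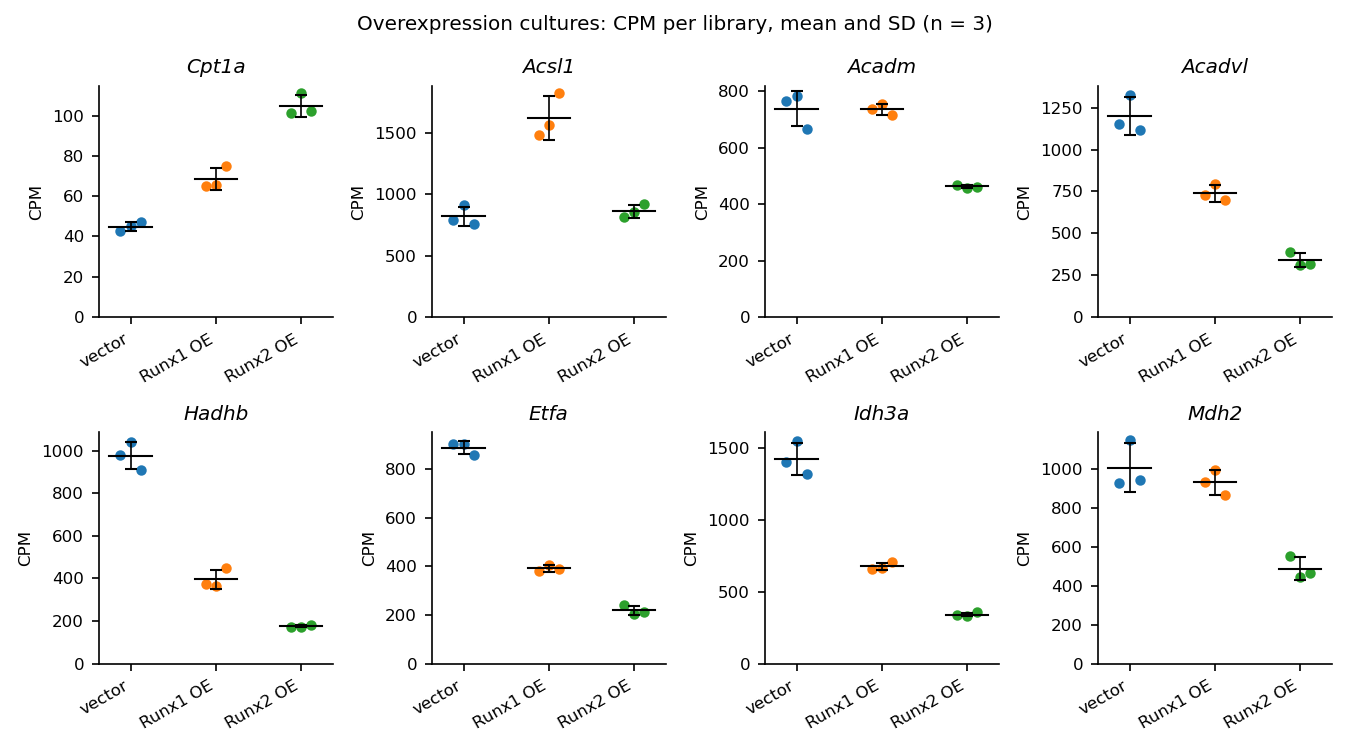
CPM (vertical axes, from 0) of 8 members in each overexpression library (points), with group mean and SD (n = 3), for vector, Runx1 and Runx2 cultures. Acadvl, Hadhb, Etfa and Idh3a step down from vector to Runx1 to Runx2 without overlap, Cpt1a steps up, Acsl1 is high with Runx1 alone, and Acadm and Mdh2 stand below vector only with Runx2.

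Of the 3 auxiliary enzymes for unsaturated chains, all fell with Runx2 and 2 with Runx1. Decr1, the dienoyl-CoA reductase, was at 178, 196 and 188 CPM in vector libraries and 172, 167 and 166 with Runx1, just below them (log2 -0.15, SE 0.085, edgeR QL adjusted p = 0.15). With Runx2 it fell to 81.3, 69.5 and 79.8 CPM (log2 -1.28, SE 0.086). The isomerase Eci1 was at 239, 299 and 209 CPM, then 156, 177 and 146, then 96.7, 70.3 and 77.1 (log2 -0.64 and -1.61, both SE 0.15). Its Runx1 call was lost without the libraries with muscle transcripts (log2 -0.33, edgeR QL adjusted p = 0.12). The other isomerase, Eci2, was at 164, 167 and 152 CPM, then 116, 126 and 114, then 64.8, 59.2 and 58.7 (log2 -0.44, SE 0.084, and -1.40, SE 0.085). The electron carriers that link the dehydrogenases to ubiquinone fell in all 6 tests, of which the test of Etfb with Runx1 did not pass without the libraries with muscle transcripts (log2 -0.14, edgeR QL adjusted p = 0.5). Etfa, the alpha subunit of the electron transfer flavoprotein, was at 904, 903 and 857 CPM, then 379, 407 and 389, then 241, 204 and 212 (log2 -1.18, SE 0.088, and -2.02, SE 0.09). Its partner Etfb was at 395, 446 and 355 CPM, then 309, 331 and 243, then 171, 123 and 133 (log2 -0.44 and -1.48, both SE 0.15). Etfdh, the ubiquinone oxidoreductase, was at 288, 333 and 263 CPM, then 178, 195 and 206, then 132, 122 and 128 (log2 -0.61 and -1.21, both SE 0.10). Thus the 2 flavoprotein subunits differed in how far they fell with Runx1, which was not tested.

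The 3 subunits of pyruvate dehydrogenase, the gate from pyruvate to acetyl-CoA, fell in both cultures. Dlat, the acetyltransferase core, was at 720, 758 and 648 CPM, then 283, 317 and 350, then 162, 165 and 186 (log2 -1.16, SE 0.10, and -2.05, SE 0.11). Pdha1, the catalytic alpha subunit, was at 470, 489 and 429 CPM, then 317, 307 and 398, then 224, 231 and 242 (log2 -0.44 and -0.99, both SE 0.11). The beta subunit Pdhb was at 1123, 1105 and 1060 CPM, then 678, 736 and 715, then 368, 309 and 341 (log2 -0.63, SE 0.088, and -1.69, SE 0.09). The libraries of the 3 groups did not overlap for any of these 3 genes.

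In the TCA cycle, 11 of 12 members fell with Runx1 and all 12 with Runx2. Without the libraries with muscle transcripts, 2 of the 11 no longer passed, Idh2 (log2 -0.23, edgeR QL adjusted p = 0.13) and Suclg1 (-0.18, 0.22). Cs, citrate synthase, which makes the first step of the cycle, was at 2828, 3096 and 2745 CPM in vector libraries, 1652, 1855 and 1958 with Runx1, and 1049, 1028 and 1095 with Runx2 (log2 -0.67, SE 0.092, and -1.45, SE 0.094). Idh3a, the catalytic subunit of NAD-dependent isocitrate dehydrogenase, was at 1403, 1549 and 1324 CPM, then 656, 667 and 707, then 340, 329 and 356. It had the lowest values of the cycle in both comparisons (log2 -1.07, SE 0.087, and -2.06, SE 0.09; edgeR QL adjusted p = 1.9e-06 and 8.4e-09). The companion subunits Idh3b and Idh3g fell by 0.78 and 0.68 on the log2 scale with Runx1 and by 1.71 and 1.77 with Runx2. Idh2, the NADP-dependent enzyme, moved less: 427, 523 and 414 CPM, then 343, 363 and 360, then 266, 235 and 244 (log2 -0.36 and -0.87, both SE 0.10). Mdh2, malate dehydrogenase, was the member of the cycle that did not pass with Runx1, at 924, 1149 and 943 CPM in vector libraries and an overlapping 932, 992 and 865 (log2 -0.11, SE 0.12). With Runx2 it fell to 553, 443 and 465 CPM (log2 -1.04, SE 0.12). The oxoglutarate dehydrogenase subunits Ogdh and Dlst fell by 0.74 and 0.53 with Runx1 and by 1.19 and 1.16 with Runx2. For Ogdh the step between the cultures was the smallest of the cycle (log2 -0.44, SE 0.13, edgeR QL adjusted p = 0.019), with 440, 434 and 561 CPM against 353, 347 and 355, and it was lost in at least 1 alternative. The largest such step in the cycle was that of Idh3g (-1.09, SE 0.10; 338, 359 and 335 CPM against 175, 152 and 159). The succinyl-CoA ligase genes fell too, Sucla2 (log2 -0.71 and -1.46), Suclg1 (-0.39 and -1.25) and Suclg2 (-0.56 and -1.04), as did fumarase, Fh1 (-0.56 and -1.45).

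Summed over the 35 genes, the level was 21963 ± 1754 CPM in vector cultures, 14976 ± 631 with Runx1 and 8334 ± 333 with Runx2 (SD, n = 3). Most adipocyte markers moved with it for Runx2. The 8 markers summed to 8080 to 8714 CPM in vector, 7090 to 8760 with Runx1 and 3891 to 4657 with Runx2. With Runx2, 7 of the 8 lay below every vector library, Fabp4 among them (2348, 1905 and 2148 against 4221, 3648 and 4033 CPM). Adipoq did not, at 1122, 932 and 964 against 963, 934 and 886 CPM. Members per adipocyte marker CPM were 2.59 ± 0.132, 1.9 ± 0.235 and 1.96 ± 0.103. The 7 brown adipocyte markers summed to 517 to 770, 96.1 to 134 and 49.9 to 56.1 CPM, and 6 stromal progenitor markers to 346 to 775, 1653 to 1938 and 4580 to 5063 CPM. The part of these markers in the result was not tested. Without the 3 libraries with muscle transcripts, 24 members fell and 2 rose with Runx1 (22.9% and 24.0% of all genes), with a median log2 of -0.49. That fit leaves 1 vector library, assumed to vary like the other groups, and Eci1, Acaa2, Acads, Suclg1, Etfb and Idh2 no longer passed. In it Hadhb stayed at -1.30 and Cpt1a at 0.47. The Runx2 counts were 1 higher and 32 lower in it, and Cpt1b then rose between Runx1 and Runx2. Across all alternatives run, 25 of the 32 members called with Runx1 and all 33 called with Runx2 passed every time.

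Other genes of these pathways fell as well. Of 22 tested genes in a list of other fatty acid oxidation genes, 16 fell and 2 rose with Runx1, and 21 fell and 1 rose with Runx2, with median log2 of -0.73 and -1.17. The mitochondrial thioesterase Acot2 fell by 1.79 and 2.64 on the log2 scale and Acad10 by 1.64 and 2.10, while the acyl-CoA synthetase Acsl3 rose slightly (0.30 and 0.32) and Acsl5 rose with Runx1 (0.49). Of 15 other TCA and pyruvate genes, 6 fell with Runx1 and 13 with Runx2. These included Sdha, the flavoprotein subunit of succinate dehydrogenase (-0.94 and -1.69), and Dld, the dehydrogenase shared by the oxoacid complexes (-0.73 and -1.58). The pyruvate carrier subunit Mpc2 rose (1.21 and 0.64). Between Runx1 and Runx2, all 15 fell, among them Mdh1 (-1.04) and Mpc1 (-1.02), and 15 of the 22 oxidation genes fell, among them Hsd17b4 (-0.88).

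The kinases that switch pyruvate dehydrogenase off, and the phosphatases that switch it on, had 6 of 7 lower and 1 higher in both cultures. Pdk1 fell by 3.02 and 3.89 on the log2 scale and Pdk4 by 2.83 and 2.53. Pdpr, a regulatory subunit of the phosphatase, fell by 2.84 with Runx1, Pdk2 by 1.88 with Runx2, and the catalytic phosphatase subunit Pdp1 rose (1.09 and 0.79). Between Runx1 and Runx2, Pdk1 (-0.87), Pdk2 (-0.86) and Pdk3 (-0.53) were lower. Among 17 tested regulators of oxidative genes, 12 fell and 3 rose with Runx1, and 11 fell and 2 rose with Runx2. The fatty acid receptor Ppara fell (-2.98, SE 0.20, and -3.94, SE 0.21), as did the nuclear receptor Esrra (-0.61 and -1.58, both SE 0.17). Ppargc1a, a coactivator of mitochondrial genes, fell with Runx1 (-1.28, SE 0.25) but had -0.19 (SE 0.24) with Runx2, and was higher with Runx2 than with Runx1 (1.09, SE 0.25). Ppargc1b fell with Runx1 (-1.65), Klf15 in both (-0.95 and -1.75) and Pparg with Runx2 (-0.98), while Gabpb1 (0.73 and 0.97) and Nrf1 (0.47 and 0.34) rose in both and Rxra rose with Runx1 (0.33).

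In the single-knockout cultures none of the 35 genes passed, with edgeR or DESeq2. The backgrounds were 0.406% of genes higher and 0.0295% lower with Runx1 knocked out, and 0.177% and 0.00738% with Runx2 knocked out. At an unadjusted p under 0.05 there were 0 members with Runx1 knocked out, where 4.55% of all genes were higher and 2.41% lower. With Runx2 knocked out there was 1 such member, where 4.04% of all genes were higher and 2.40% lower. Member medians were log2 0.02 and 0.04, with ranges of -0.18 to 0.36 and -0.18 to 0.57. Cpt1a was at 19.8, 22.6 and 25.7 CPM in control libraries, 30.7, 29.5 and 27.0 in the Runx1 knockout, and 33.5, 33.0 and 28.6 in the Runx2 knockout. Both knockout groups lay above the controls without passing (log2 0.36 and 0.48, both SE 0.26; edgeR QL adjusted p = 0.98 and 0.87). When library 1 of the double knockout was left out of the table, Cpt1a passed in the Runx2 knockout (log2 0.49, SE 0.11, edgeR QL adjusted p = 0.017).

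The other carnitine shuttle genes also stood higher in the Runx2 knockout. Cpt1b had the highest log2 of the members there (0.57, SE 0.599), at 0.539, 0.542 and 0.241 CPM in controls, 0.454, 0.339 and 0.602 in the Runx1 knockout and 0.62, 0.589 and 0.75 in the Runx2 knockout. With Acsl1 (0.18), Cpt2 (0.17) and Cpt1a, all 4 genes of this role lay above the controls without overlap in the Runx2 knockout, and none passed. The values of Cpt1b are uncertain, as its counts are low. Over all 35 members 12 were higher without overlap (34.3%, where 8.87% of all genes were) and 4 lower (11.4%, against 9.98%). In the Runx1 knockout 5 were higher in that way (14.3%, against 10.5%) and 4 lower (11.4%, against 12.4%). Acadm was at 940, 719 and 728 CPM in controls, 770, 745 and 784 in the Runx1 knockout and 739, 779 and 724 in the Runx2 knockout. Hadhb was at 837, 798 and 820 CPM, then 844, 796 and 899, then 877, 893 and 830. Cs was at 2440, 2905 and 2831 CPM, then 2737, 2728 and 2828, then 2682, 2565 and 2655. Idh3a was at 1251, 1349 and 1337 CPM, then 1313, 1257 and 1421, then 1373, 1428 and 1293. Pdha1 was at 580, 473 and 450 CPM, then 473, 492 and 457, then 428, 468 and 476. For these 5 genes the control and knockout ranges overlapped. Ppara had log2 0.08 and 0.34, Ppargc1a 0.43 and 0.41, and Esrra -0.28 and -0.27, none of which passed. Of the other pathway genes, the thioesterase Acot1 alone rose, in the Runx2 knockout (log2 0.86, SE 0.14, edgeR QL adjusted p = 0.038).

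In the double knockout 3 of 35 members rose (8.57%, where 8.27% of all genes rose) and none fell (7.01% of all genes), with medians of 0.11 and 0.022. The members' share is thus near the background. Acaa2 rose most, from 427, 518 and 511 CPM to 966, 658 and 618 (log2 0.62, SE 0.16, edgeR QL adjusted p = 0.023). Mdh2 rose from 889, 997 and 1018 CPM to 1547, 1190 and 1202 (log2 0.44, SE 0.13, 0.039) and Cpt2 from 138, 163 and 161 to 219, 188 and 184 (0.36, SE 0.11, 0.049). The groups did not overlap for these 3 genes. With the replicate number as a block, Acaa2 alone passed (log2 0.61, SE 0.17, adjusted p = 0.043). No member passed when only these 2 groups were fitted, or without any 1 of the control libraries, and DESeq2 called 5 higher and 3 lower, where it called 12.3% of all genes higher and 9.95% lower. At an unadjusted p under 0.05 there were 8 higher and 4 lower, where 16.6% and 14.3% of all genes were.

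Library 1 of the double knockout stood apart. It lay above the other 11 libraries of the table in 22 of 35 members and below them all in 9, where library 2 did so in 0 and 1 and library 3 in 7 and 9. Its adipocyte markers summed to 16240 CPM, against 8026 to 9180 in the rest of the table. Fabp4 made up most of the excess (12061 CPM, against 3143 to 4615), while Plin1 (609, against 724 to 1095) and Pnpla2 (747, against 838 to 1811) were the lowest of the 12 libraries. For Cpt1a it was at 18.3 CPM where libraries 2 and 3 were at 42.8 and 46.2. For Etfb it was at 1341 CPM where they were at 573 and 464. Acadm was at 1059, 614 and 574 CPM, Hadhb at 1159, 948 and 948, Cs at 1949, 2557 and 2629, Idh3a at 1669, 1276 and 1293, and Pdha1 at 350, 449 and 459. The first library was thus high in some members and low in others relative to its 2 companions.

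Without that library 8 members rose and 5 fell, where 12.8% of all genes rose and 13.2% fell, with a member median of 0.01. Cpt1a rose by 0.98 (SE 0.11, edgeR QL adjusted p = 6e-06), Hadha by 0.60 (SE 0.089), Acaa2 by 0.40, and Mdh2, Acsl1, Decr1, Cpt2 and Hadhb by 0.31, 0.31, 0.28, 0.28 and 0.22. Eci1 (log2 -0.55, SE 0.08), Acadm (-0.42), Echs1 (-0.40), Idh3b (-0.23) and Dlat (-0.20) fell. With all libraries Cpt1a had log2 0.66 (SE 0.26, edgeR QL adjusted p = 0.11). Without library 3, 6 rose and 1 fell, where 10.6% of all genes rose and 8.64% fell.

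**Figure D3:**
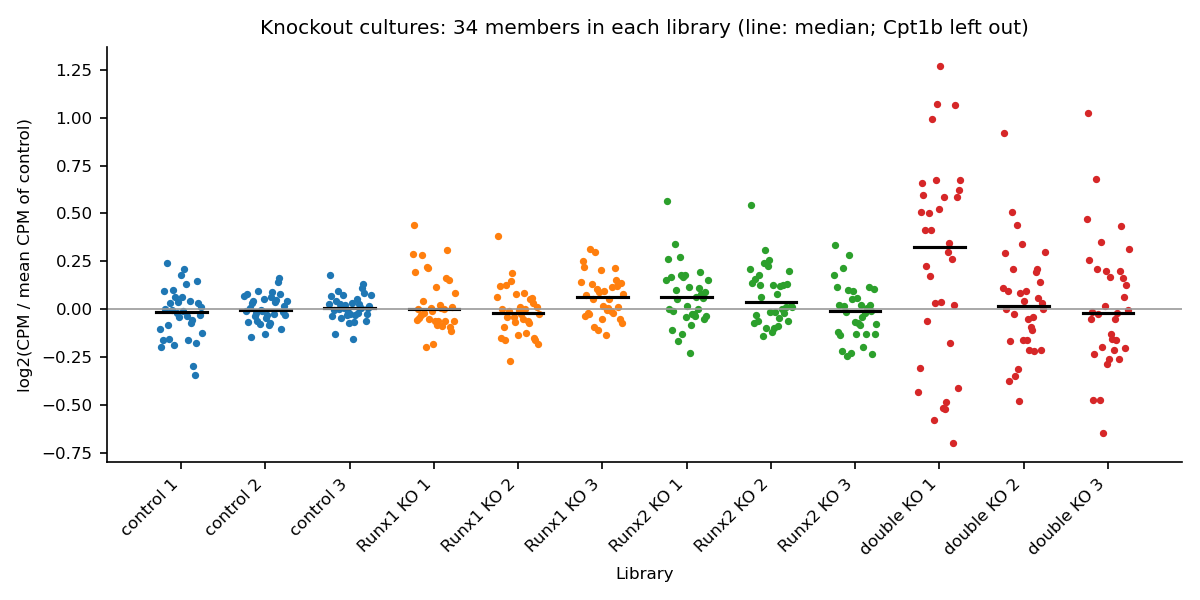
Log2 of each member's CPM over its mean in the control cultures (vertical axis) in the 12 libraries of the knockout table (horizontal axis), with a point for each of 34 members (Cpt1b is left out) and a line at the median. The points of double knockout library 1 spread the widest and its median lies above 0, while the medians of the other 11 libraries lie near 0.

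Other genes of the pathways moved in the double knockout as well. Of 22 other oxidation genes 3 rose, Acot1 (log2 1.18, SE 0.14), Acsl5 (0.59) and Acat1 (0.39), and 4 fell, among them Acadsb (-0.61), Decr2 (-0.54) and Acad10 (-0.48). None of 15 other TCA and pyruvate genes passed. Pdk4 fell by 1.07 (SE 0.14) and Pdk2 by 0.82, and Pdk3 rose (0.96). Ppargc1a rose (0.87, SE 0.23, edgeR QL adjusted p = 0.027), while Klf15 (-1.25), Tfb2m (-0.71) and Foxo1 (-0.41) fell, and Ppara (-0.46) and Esrra (-0.18) did not pass.

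In iWAT of Adipoq-cre:Runx1 KO mice, 9 of 34 tested members rose (26.5%, where 4.45% of all genes rose) and none fell (3.03%). The member median was log2 0.46 against -0.004 for all genes, and 23 members lay above the floxed libraries without overlap, as 17.3% of all genes did. Of the 4 dehydrogenases 3 rose, Acadvl from 320, 376 and 246 CPM to 608, 546 and 557 (log2 0.86, SE 0.17, edgeR QL adjusted p = 0.018), Acadm from 281, 322 and 237 to 596, 443 and 478 (0.85, SE 0.17), and Acads from 92.5, 101 and 79.6 to 132, 126 and 143 (0.56, SE 0.13). Acadl, at 491, 523 and 363 against 708, 534 and 572 CPM, did not pass (0.40, SE 0.181, edgeR QL adjusted p = 0.2). For all 4 the knockout libraries lay above the floxed ones without overlap. Etfb rose from 194, 279 and 237 CPM to 387, 415 and 431 (0.80, SE 0.16), Dlat from 161, 138 and 98.0 to 239, 206 and 216 (0.73, SE 0.18), and Cpt2 from 135, 99.0 and 81.3 to 189, 161 and 166 (0.71, SE 0.18). Idh3a rose from 268, 265 and 182 CPM to 459, 345 and 363 (0.71, SE 0.19), Eci1 from 90.3, 94.2 and 62.2 to 129, 132 and 133 (0.68, SE 0.16), and Suclg1 from 105, 117 and 91.3 to 147, 142 and 150 (0.49, SE 0.13). These 9 genes span 6 of the 7 roles, with none from the later beta-oxidation steps.

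Several members did not follow. Hadhb was at 348, 341 and 250 CPM in floxed and an overlapping 392, 306 and 352 in knockout libraries (log2 0.16, SE 0.17). Pdha1 was at 134, 162 and 116 against 182, 136 and 163 CPM (0.23, SE 0.16). Cs was at 422, 504 and 382 against 707, 556 and 606 CPM, without overlap but not past the threshold (0.51, SE 0.16, edgeR QL adjusted p = 0.079). Cpt1a pointed the other way, at 82.2, 90.7 and 82.4 CPM in floxed and 68.2, 73.2 and 62.6 in knockout libraries (log2 -0.32, SE 0.12, edgeR QL adjusted p = 0.12). Its groups did not overlap.

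In simulated counts of the Runx1 knockout iWAT table, 10.1% of calls were false. The count of 9 moved with single libraries. It was 0 without knockout library 2 or 3, 1 without knockout library 1, 4 without floxed library 3, 7 without floxed library 1 and 13 without floxed library 2, while DESeq2 called 18. The share of all genes called higher was 0.419 to 4.83% over the 6 fits without a library, and 8.0% with DESeq2. Floxed library 3 was below both other floxed libraries in 29 of 35 members. Skeletal muscle markers, whose tissue also uses these enzymes, summed to 15.9, 7060 and 75.2 CPM in floxed and 227, 16670 and 7710 CPM in knockout libraries. Without the 3 libraries rich in them, which leaves 1 knockout library that is assumed to vary like the floxed ones, Acadvl (1.10), Acadm (1.21) and Idh3a (1.03) rose and the median was 0.66 (1.61% of all genes rose and 0.894% fell). The other 6 had log2 of 0.58 to 0.88 there and did not pass. With the muscle marker score as a covariate 0 members passed, with the adipocyte score 5 and with the lymphocyte score 11, at medians of 0.42, 0.40 and 0.44, where 1.08%, 3.74% and 4.55% of all genes rose. The 7 brown adipocyte markers summed to 90.8 to 162 CPM in floxed and 272 to 430 CPM in knockout libraries, and members per adipocyte marker CPM were 0.406 ± 0.0503 and 0.459 ± 0.0325. The 5 endothelial markers summed to 817 to 1092 CPM in floxed and 530 to 762 CPM in knockout libraries, also without overlap. The part of the brown adipocyte and endothelial markers in the result was not tested.

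Of the related genes, the carnitine carrier Slc25a20 (log2 0.93), Acad11 (0.91), Mlycd (0.60), Sdhd (0.70), Mpc2 (0.93) and pyruvate carboxylase, Pcx (0.68), rose, in all 3 of 24 other oxidation genes and 3 of 15 other TCA and pyruvate genes, with none lower. Esrra rose by 1.41 (SE 0.14, edgeR QL adjusted p = 0.0011) and Ppara by 1.16 (SE 0.25), while Ppargc1a (-2.10, SE 0.40), Foxo1 (-0.85) and Gabpb1 (-0.60) fell. None of the 7 pyruvate dehydrogenase kinases and phosphatases passed.

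In iWAT of Adipoq-cre:Runx2 KO mice, no gene of the table passed (0% higher and 0% lower), members included. The members nonetheless stood higher in the knockouts: 30 of 34 lay above every floxed library (13.7% of all genes did), 19 were at log2 1 or more (3.77% of all genes), and the median was 1.03 against -0.041 for all genes. Unadjusted p was under 0.05 for 30 members, all higher, where 9.43% of all genes were higher at that level. Their edgeR QL adjusted p was 0.22 to 0.23, and that of the other 4 was 0.24 to 0.4. DESeq2 called 26 members higher, where it called 3.82% of all genes higher and 3.18% lower.

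Floxed library 3 was unlike the other floxed libraries. It was the one rich in skeletal muscle markers, at 7301 CPM against 50.2 and 78.3 in floxed libraries 1 and 2. The knockout libraries had 142 to 454 CPM of them. Idh3a was at 71.3, 95.6 and 157 CPM in floxed and 254, 416 and 358 in knockout libraries (log2 1.67, SE 0.34). Cs was at 257, 289 and 455 against 610, 722 and 737 CPM (1.05, SE 0.27), and Acadm at 147, 182 and 296 against 387, 510 and 494 (1.15, SE 0.30). In each of these the third floxed library was the highest of the controls and still below every knockout library. Hadhb was at 166, 193 and 320 against 434, 537 and 564 CPM (1.18, SE 0.29), and Pdha1 at 76.1, 85.4 and 136 against 197, 248 and 204 (1.13, SE 0.26). Acsl1 was at 893, 1444 and 3127 against 4516, 5263 and 5023 CPM (1.44, SE 0.46). Over all members, that library was above both other floxed libraries in 33 and below all knockout libraries in 32. Cpt1a again pointed the other way, at 67.6, 97.6 and 40.4 against 49.9, 51.6 and 41.8 CPM, with overlap (log2 -0.52, SE 0.30).

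Without floxed library 3, 33 members rose and 1 fell (20.9% and 19.1% of all genes), with a median of 1.39. Acsl1 then rose by 2.08 (SE 0.26), Idh3a by 2.04 (SE 0.24), Ehhadh by 2.00 (SE 0.25) and Acadvl by 1.75 (SE 0.19), and the smallest rises were those of Suclg2 (0.84) and Idh2 (0.86). Cpt1a fell (log2 -0.79, SE 0.18, edgeR QL adjusted p = 0.0079). Adipocyte markers moved with these values. They summed to 14110, 17190 and 37680 CPM in floxed and 38600 to 47270 CPM in knockout libraries, and 8 lymphocyte markers to 1879, 1684 and 444 against 343 to 595 CPM. Members per adipocyte marker CPM were 0.328 ± 0.0353 in floxed and 0.372 ± 0.0497 in knockout libraries (SD, n = 3). With the adipocyte or the lymphocyte score as a covariate 0 members passed and the medians were 0.40 and 0.57. Since 0 members passed without a covariate too, that count can show no loss. With the skeletal muscle score 33 rose (median 1.12, where 12.2% of all genes rose). Brown adipocyte markers summed to 61.2 to 175 CPM in floxed and 267 to 987 CPM in knockout libraries, and 6 macrophage markers to 310 to 362 and 261 to 290 CPM. The part of these 2 lists was not tested. Ppara had log2 3.00 (SE 0.75), Ppargc1a 1.76 (SE 0.29) and Esrra 0.46 (SE 0.29), none past the threshold.

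**Figure D4:**
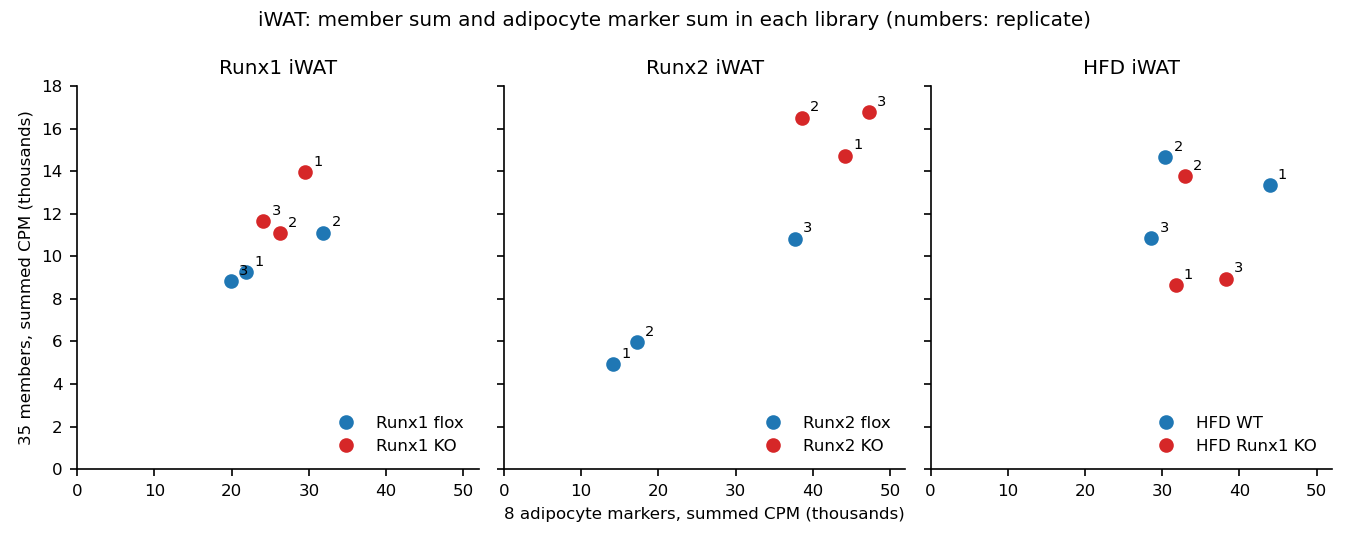
Sum of the 35 members (vertical axis, CPM with labels divided by 1000) against the sum of the 8 adipocyte markers (horizontal axis, CPM with labels divided by 1000) for each iWAT library, in 3 panels by table, with genotype as colour and replicate numbers beside the points. In the Runx2 panel floxed library 3 (10829 CPM of members) lies between floxed libraries 1 and 2 (4937 and 5951) and the knockouts (14729 to 16771).

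**Figure D5:**
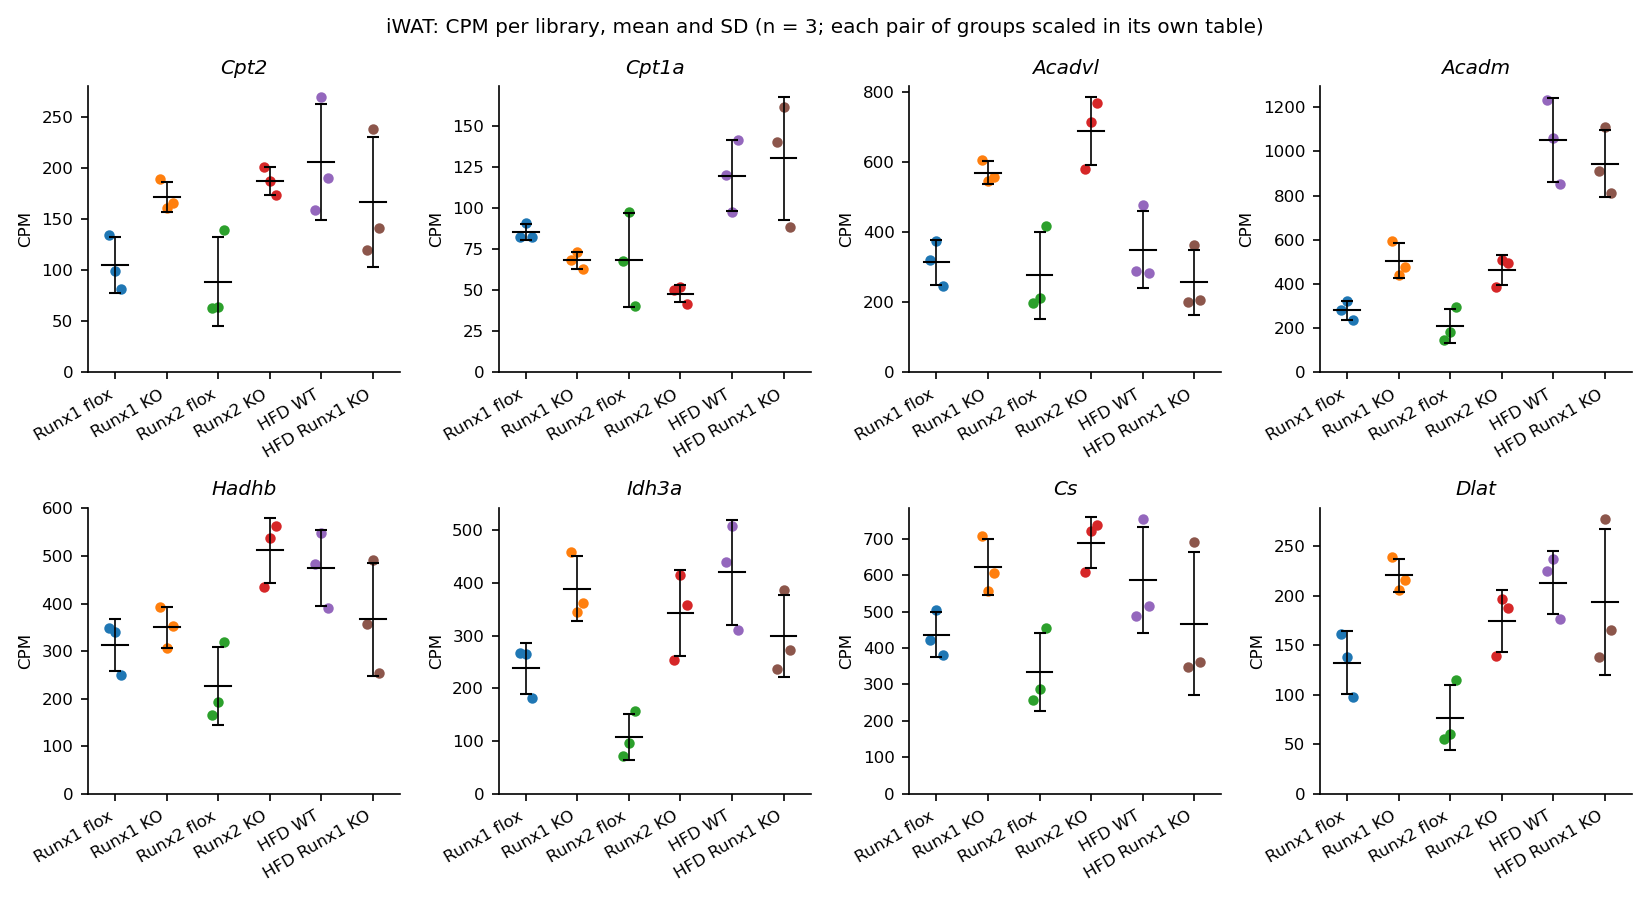
CPM (vertical axes, from 0) of 8 members in each iWAT library (points), with group mean and SD (n = 3), where each floxed or wild-type group and its knockout were scaled in a table of their own. Acadm and Idh3a are higher in the Runx1 and the Runx2 knockout libraries than in all of their floxed libraries, Cpt1a is not, and the HFD groups overlap.

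Under HFD, no member passed between Runx1 knockout and wild-type iWAT with edgeR, where 0.0465% of all genes rose and 2.07% fell. None passed with DESeq2 either. At an unadjusted p under 0.05 there were also 0 members, where 3.36% of all genes were higher and 5.14% lower. Of 34 tested members 32 were below 0, with a median of -0.33, and every one overlapped between the groups, where 5.55% of all genes were higher and 6.75% lower without overlap. Cpt1a was at 120, 97.7 and 141 CPM in wild-type and 140, 162 and 88.6 in knockout libraries (log2 0.12, SE 0.25). Acadm was at 1235, 1062 and 855 against 913, 1109 and 810 CPM (-0.15, SE 0.25), and Hadhb at 484, 549 and 392 against 356, 491 and 255 (-0.37, SE 0.27). Library 2 of the knockouts was the highest of its group for these 3 genes, and above both companions in 30 of 35 members. Cs was at 488, 753 and 516 against 349, 692 and 360 CPM (-0.33, SE 0.31), Idh3a at 440, 509 and 311 against 237, 387 and 273 (-0.49, SE 0.27), and Pdha1 at 236, 255 and 201 against 199, 229 and 114 (-0.35, SE 0.26). Lymphocyte markers summed to 211 to 440 CPM in wild-type and 4.39 to 14.2 CPM in knockout libraries. These ranges are far apart, so a fit with the lymphocyte score as a covariate can hardly separate it from genotype. In that fit the member median was -1.66 and no gene of the table passed (0% higher and 0% lower). The authors' deposited table of 403 changed genes for this comparison held 0 members. Ppara had log2 -0.60, Ppargc1a -0.01 and Esrra -0.28, none of which passed.

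Between Runx2 lacking the IDR stretch and full-length Runx2, 3 of 35 members rose (8.57%, where 1.51% of all genes rose) and none fell (2.40%), by small amounts. Hadha was at 993 and 992 CPM with full-length and 1237 and 1153 with shortened Runx2 (log2 0.27, SE 0.072, edgeR QL adjusted p = 0.024). Hadhb was at 603 and 576 against 731 and 681 CPM (0.26, SE 0.073, 0.03), and Idh3a at 1208 and 1158 against 1486 and 1370 (0.27, SE 0.073, 0.024). In all 3 both shortened libraries lay above both full-length ones. The authors' deposited table of 341 changed genes held 2 members, Hadha (log2 0.267, adjusted p = 0.00683) and Idh3a (0.27, 0.00899). The member median was 0.09, with 29 of 35 above 0. Without overlap, 21 were higher and 3 lower, where 22.2% of all genes were higher and 22.3% lower in that way. The remaining named genes were close between the constructs: Acadm at 1010 and 997 against 1008 and 1013 CPM, Cs at 2430 and 2407 against 2444 and 2531, and Pdha1 at 583 and 607 against 561 and 589. Cpt1a was at 33.0 and 38.8 against 29.1 and 32.6 CPM (log2 -0.22, SE 0.11) and Cpt1b at 0.855 and 0.733 against 0.8 and 1.02. None of these 5 passed.

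Runx2 itself stood at 293 and 294 CPM with the full-length and at 115 and 143 CPM with the shortened form (log2 -1.19, SE 0.085), and Runx1 also fell (-1.09, SE 0.20). A gene count cannot tell a missing stretch from fewer transcripts. No member passed without either full-length library or without shortened library 1, and 4 did without shortened library 2 (3.48% of all genes rose and 5.51% fell there). Among the related genes Esrra (0.35, SE 0.079) and Pdk1 (0.40) rose, and Acox3 (-0.44), Klf15 (-0.42), Pdk4 (-0.37), Pdk2 (-0.30) and Nrip1 (-0.30) fell. Ppara (-0.08) and Ppargc1a (-0.05) did not pass.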

How the data were processed

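Raw counts per gene symbol, as deposited in 6 tables, were used with no prior scaling. The submitters' processing notes name fastp, STAR, featureCounts and the mm39 build. Versions and options are not given in the sources used here. Between 71.1 and 81.9% of the values from 1 to 19 were even, as when the mates of a pair are each counted. The log2 fold changes and adjusted p-values of 2 deposited lists are the authors' own, per the file headers. The 10 per-sample columns of those lists were not used.

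The robust quasi-likelihood test of edgeR 4.0.16 (R 4.3.3) was run table by table after filterByExpr and TMM scaling, with Benjamini-Hochberg adjustment over all tested genes. An SE is the fold change divided by the root of the F statistic. CPM are TMM-scaled. The procedure was tested on simulated counts. In Runx2 knockout iWAT 10% of genes changed 2-fold and 90% of those changed 4-fold were recovered. In the Runx2 construct cultures 98% and 100% were, with 0 of wrong sign. False calls made up 10.3% of calls under HFD, 10.1% in Runx1 and 8.26% in Runx2 knockout iWAT. They made up 7.5% with Runx1 overexpression, 3.43% in Runx1 knockout cultures and 3.41% with the Runx2 constructs. Shares of 7.5% and more were above what the adjusted p threshold is meant to allow. No counting intervals were used.

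The members and lists were chosen with earlier results of these data known. Values in every library are given for Cpt1a, Cpt1b, Acadm, Hadhb, Cs, Idh3a and Pdha1, and for the called members of highest and lowest fold change of a role. From other lists, up to 3 called genes of lowest adjusted p per direction are named, with Ppara, Ppargc1a and Esrra always; 2 genes so picked are withheld for evaluation and not reported here. Ehhadh, Etfb in the double knockout and the extremes without floxed library 3 were singled out after their values were seen.

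Each result for the members was recomputed with the size factors or the Wald test of DESeq2 1.42.0 and without the filter. It was also recomputed with a replicate block, with 2 groups alone and without each library. Other named genes, such as Esrra, Ppargc1a and Pdk4, were not followed in these alternatives, so how far their calls hold was not tested. Marker sums were also fitted as covariates. Fits without iWAT libraries over 1000 CPM of skeletal muscle markers, and without double knockout library 1, were chosen after seeing the data. Replicate numbers are shared by groups. Same-numbered control and double knockout libraries deviated together (correlations of 0.307, 0.31 and 0.108), so they may be paired. Other pairs did not do so throughout, and over all pairs of the knockout cultures the correlations ran from -0.282 to 0.432. The main fits had no block, so the double knockout calls are also given with the replicate block. Plots were made in matplotlib 3.10.9 (Python 3.11.15).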

Additional observations from a re-analysis of the deposited data

Results flagged for a closer look

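A search of 140 combinations of a member and a pair of knockout comparisons found 8 in which every knockout library lay on one side of its controls in the cultures and on the opposite side in iWAT, which gives 16 values. Over the 136 combinations tested in both tables this is 5.88%, against 2.54% of such combinations for all genes. All 8 came from pairing the single-knockout cultures with iWAT of the Adipoq-cre mice, with 5 of 34 members for Runx1 (14.7%, against 5.07% of all genes) and 3 of 34 for Runx2 (8.82%, against 2.45%). None of these differences between culture and tissue was tested, and the tables were fitted separately. In iWAT alone, members lay above their controls without overlap more often than all genes (67.6% against 17.3% for Runx1, 88.2% against 13.7% for Runx2). In the cultures 11.4% of members lay below theirs for either knockout, against 12.4% and 9.98% of all genes. The excess of opposite combinations is thus not separate from the iWAT difference given above. For Runx1, Cpt1a had log2 0.36 in the knockout cultures and -0.32 in knockout iWAT, the reverse of the other genes. Echs1 had -0.18 and 0.23, Eci1 -0.07 and 0.68, Suclg1 -0.11 and 0.49, and Fh1 -0.10 and 0.54. For Runx2, Echs1 had -0.18 in the cultures and 0.90 in iWAT, Eci1 -0.15 and 1.17, and Suclg1 -0.11 and 0.92. Of these, Eci1 and Suclg1 passed the edgeR test in Runx1 knockout iWAT, and none passed in the cultures. Both culture comparisons used the same control libraries, so Echs1, Eci1 and Suclg1 for Runx2 are not independent repeats of Runx1.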

How the results depend on the processing

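No called member changed direction under the alternatives run. The counts in single knockouts, HFD iWAT and Runx1 or Runx2 overexpression against vector stayed within 1.5 times under the alternatives run, with 1 exception. In the Runx2 knockout 1 member rose when double knockout library 1 was left out of its table, where 1.55% of all genes rose. Between Runx2 and Runx1 overexpression 2 rose without Runx1 library 3 (22.2% of all genes rose) or without the libraries with muscle transcripts (24.0%). In the double knockout, higher calls were 5 with DESeq2, 1 with the replicate block and 0 with 2 groups alone (12.3%, 7.01% and 2.10% of all genes). With a library left out they were 0 to 8. Lower calls were 3 with DESeq2 and 0 to 5 with a library left out. Without the filter 2 members called in the double knockout no longer passed and 1 other did. In Runx1 knockout iWAT, higher calls were 18 with DESeq2, 0 to 13 with a library left out, 5 with the adipocyte and 0 with the muscle covariate. They were 6 with the replicate block, where 3.06% of all genes rose. In Runx2 knockout iWAT higher calls were 26 with DESeq2, 0 to 33 with a library left out and 33 with the muscle covariate. Lower calls there were 0 to 1 with a library left out. Both muscle-library settings left out floxed library 3 alone, so they repeat the fit without it (33 higher and 1 lower). With the Runx2 constructs leaving out a library gave 0 to 4. The cause of these moves was not tested. The block changed no other call count by over 1.5 times. The muscle-library alternative was not run for the knockout cultures, the HFD and construct tables or Runx1 iWAT by its first rule, since no library exceeded 5 times the median of its table. In Runx2 knockout iWAT, simulated 2-fold changes were recovered in 10% of genes, so real changes of that size could be missed there. Under HFD 44% were recovered and in Runx1 knockout iWAT 58%, so such changes could be missed in these tables too. False calls made up 10.3% and 10.1% of the simulated calls in these 2 tables, so some real calls there may be false.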
